A study of Mus musculus with 14 samples.

Results

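The genes described here are 10 genes of the ovarian follicle that cumulus cells or the granulosa cells they come from are known for: Amhr2, Inhbb, Inhba, Foxl2, Star, Cyp11a1, Fshr, Hsd3b1, Has2 and Kitl. They are 10 of the 27962 gene names on Agilent whole mouse genome arrays with 41174 gene probes, and were found by name. The 10 genes had 15 probes on 24 spots, with 2 probes each for Inhbb, Star, Cyp11a1, Has2 and Kitl. The question was how far these genes of the nucleus donor cell were measured in blastocysts cloned from cumulus cells, and whether any lay above the level in embryos made by in vitro fertilization (IVF).

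Total RNA of E4.0 mouse blastocysts was amplified in 2 rounds, labeled with Cy3 and hybridized to 1-color arrays, 1 sample per array. There were 4 fusion clones, in which a cumulus cell was merged with an enucleated oocyte, and 4 injection clones, in which the donor nucleus was injected. There were also 3 male and 3 female IVF control embryos. All embryos were cultured in KSOM medium, and the clones are labeled female. The genotype and strain of the E4.0 embryos are not given in the labels, and nothing says which embryos shared a donor mouse or a day of nuclear transfer, so that the p-values measure the spread between these samples only. The arrays of 1 group shared a slide that held no other group. The clone arrays were read on 1 scanner and software version and the IVF arrays on another, so that slide, scanner and version cannot be told apart from group in any comparison of clones with IVF embryos.

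The blastocyst markers fixed for the outer and inner cells were measured as such. The 10 probes of trophectoderm genes (among them Cdx2, Krt8 and Krt18) and the 6 probes of epiblast genes (among them Pou5f1, Nanog and Sox2) were well above background on all 14 arrays. Between 57.4% and 65.2% of gene spots were marked well above background on the clone arrays and between 58.5% and 61.3% on the IVF arrays. The negative control spots, which match no mouse transcript, had a raw median of 27 to 32 on the clone arrays and of 59.5 to 65.5 on the IVF arrays. A dim probe was therefore read against a higher background on the IVF arrays.

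Cumulus cells are the inner granulosa cells that surround the oocyte and are ovulated with it. In the follicle, granulosa cells respond to follicle-stimulating hormone, to anti-Müllerian hormone and to activins, make steroids, and lay down hyaluronan so that the cumulus expands. Nuclear transfer asks the oocyte to erase this program, and donor cell genes that stay active in the clone are referred to as somatic memory. Most of these genes are also used by other tissues, so that their RNA in an embryo is not by itself a sign of a cumulus cell.

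Of the 15 probes, those of Amhr2 and Foxl2 (2 probes) were well above background on all 14 arrays, 9 were so on 2 to 13 arrays, 3 on 1 array, and the second Kitl probe on none. A probe was counted as detected on an array where at least 50% of its spots carried the scanner software's mark. By this rule 5 to 10 of the 15 probes were detected on a fusion clone array, 4 to 8 on an injection clone array, 7 to 11 on a male IVF array and 7 or 8 on a female IVF array. The mean was 7 ± 2.16 (SD, n = 4) in fusion clones, 6.5 ± 1.73 (n = 4) in injection clones, 8.33 ± 2.31 (n = 3) in male and 7.67 ± 0.58 (n = 3) in female embryos, and the ranges overlapped. A second rule took a probe as detected where its raw median lay above the 99th percentile of the negative control spots of its own array. By that rule only the Amhr2 probe was detected on all 14 arrays, and the number per array ran from 2 to 11 in fusion clones, from 2 to 13 in injection clones, from 2 to 9 in male and from 3 to 8 in female embryos. The share of all gene probes that passed this rule also differed between arrays, from 46.0% to 79.3%, and the array with 13 of the 15 was the one at 79.3%.

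**Figure D1:**
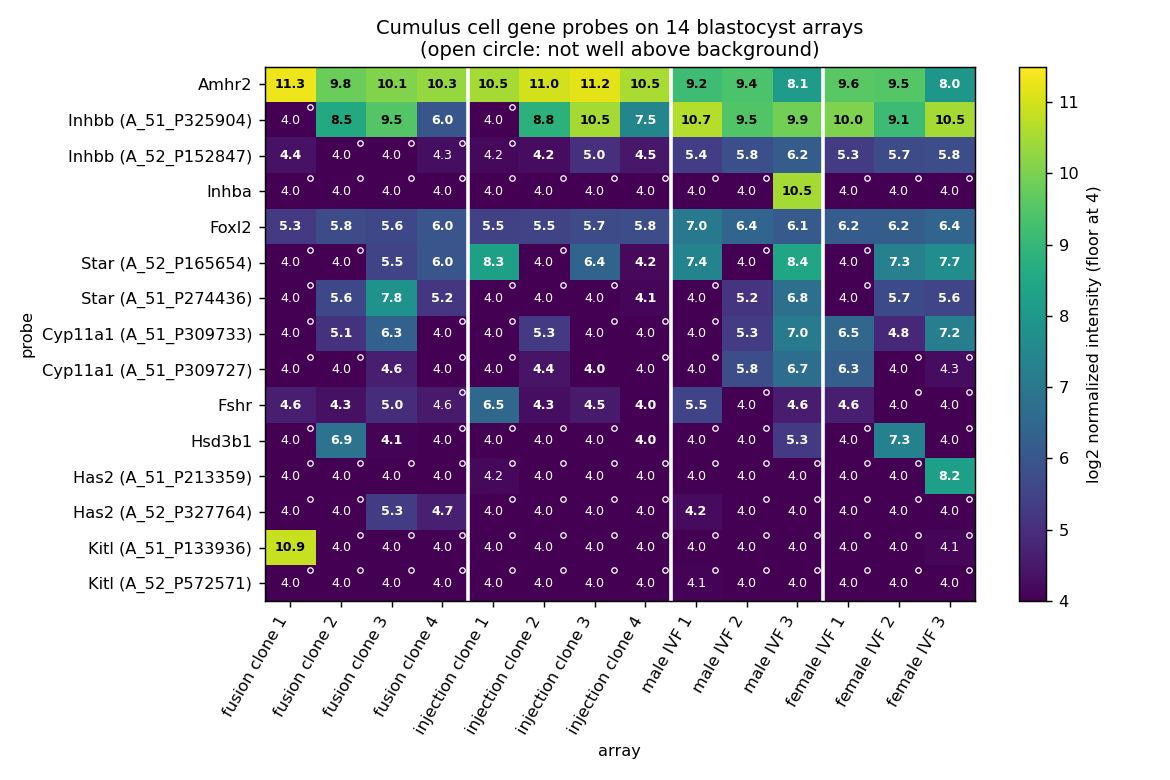
Log2 normalized intensity (color and printed value) of the 15 probes (rows) on the 14 arrays (columns, grouped by embryo type), where 4 is the floor and an open circle marks a probe not well above background. The Amhr2 row is bright on all 14 arrays and brightest on the 8 clone arrays, whereas the rows of Star and Cyp11a1 are above the floor on some arrays of both clones and IVF embryos.

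Across the 14 probes tested in all clones against all IVF embryos, 1 was higher and 2 were lower in the clones at a Benjamini-Hochberg adjusted p below 0.05 (limma). Over all 34969 probes tested, 9.16% were called higher and 13.1% lower in this comparison. The median log2 difference of the 14 probes was -0.72, against -0.07 over all probes tested, and 4 of the 14 differences were above 0. The only gene called higher was Amhr2, and the probes called lower were that of Foxl2 and the dimmer one of Inhbb.

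**Figure D2:**
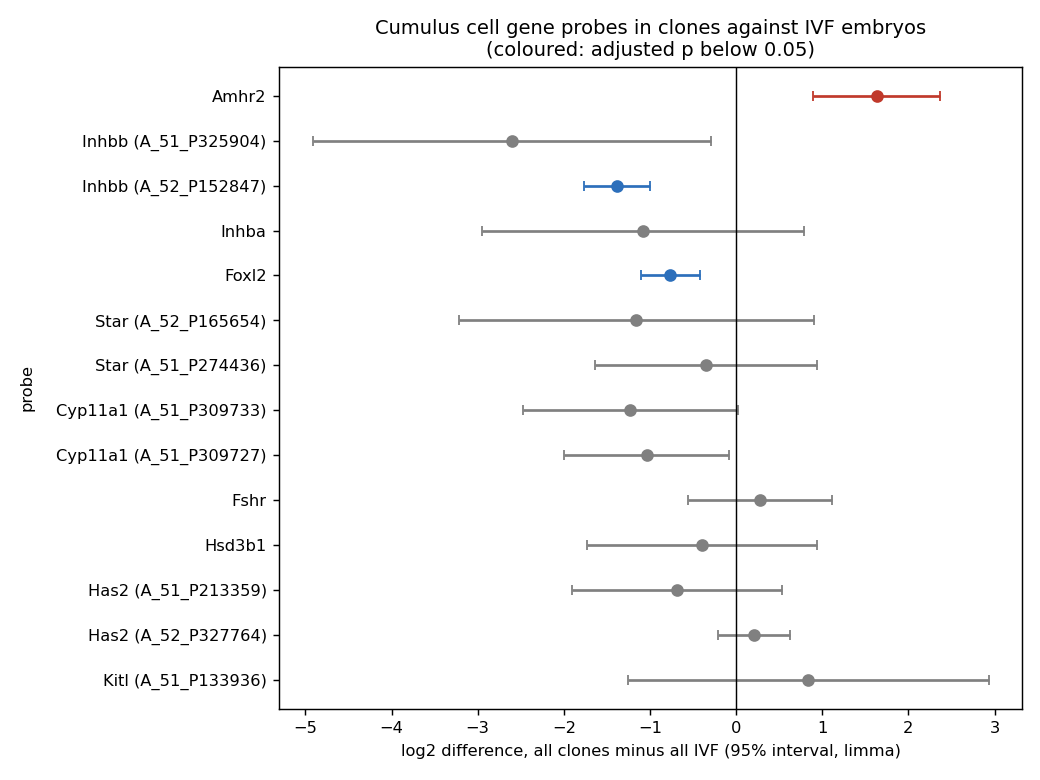
Log2 difference between all clones and all IVF embryos (horizontal axis, points) with its 95% interval from limma (bars) for the 14 tested probes (vertical axis); probes with an adjusted p below 0.05 are colored. Amhr2 (red) lies to the right of 0 at 1.63, and Foxl2 and the dimmer Inhbb probe (blue) lie to the left at -0.77 and -1.38.

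The receptors were Amhr2 and Fshr. Amhr2, on chromosome 15, is the type II receptor for anti-Müllerian hormone. Its log2 level was 11.31, 9.82, 10.09 and 10.31 in the 4 fusion clones and 10.49, 10.98, 11.20 and 10.54 in the 4 injection clones. It was 9.19, 9.37 and 8.11 in the male and 9.58, 9.54 and 7.97 in the female IVF embryos. The lowest clone array was thus above the highest IVF array, and within the IVF embryos 1 array of each sex was lower than the others.

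The groups also stayed apart before any normalization between arrays. The processed intensity of the Amhr2 probe was 998 to 2447 on the clone arrays and 223 to 766 on the IVF arrays, and its raw median was 960 to 2159 against 283 to 766. The rank of the probe among all gene probes of its own array lay between the 72.4th and 80.7th percentile in the clones and between the 62.1st and 71.1st in the IVF embryos. Being higher on every clone array than on every IVF array was seen for 2.23% of all probes tested, and among the 14 tested probes of these genes for Amhr2 only.

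In all clones against all IVF embryos the Amhr2 probe was 3.1-fold higher, a log2 difference of 1.63 ± 0.34 (SE, 8 and 6 arrays; limma, Benjamini-Hochberg adjusted p = 0.0056), with a 95% interval of 1.86- to 5.17-fold. The difference ran from 1.37 to 1.77 over the 25 alternatives and was called in each of them, with adjusted p from 0.0031 to 0.013. Against the sex-matched female embryos alone, the difference was 1.35 ± 0.53 for fusion clones (limma, adjusted p = 0.16) and 1.77 ± 0.45 for injection clones (adjusted p = 0.084), so that neither pairwise comparison passed after correction. With unadjusted p of 0.041 and 0.0071 and more than 2-fold changes, both passed the threshold given in the methods, which has no such correction.

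By group mean, the order of the Amhr2 levels was injection clones (10.80 ± 0.34, SD, n = 4), fusion clones (10.38 ± 0.65, n = 4), female IVF embryos (9.03 ± 0.92, n = 3) and male IVF embryos (8.89 ± 0.68, n = 3). Neighbors within each kind of embryo did not differ beyond their spread. The log2 difference between fusion and injection clones was -0.42, with a 95% interval of -1.24 to 0.39 (limma, adjusted p = 0.81). That between male and female embryos was -0.14, with an interval of -1.60 to 1.32 (adjusted p = 0.94).

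**Figure D3:**
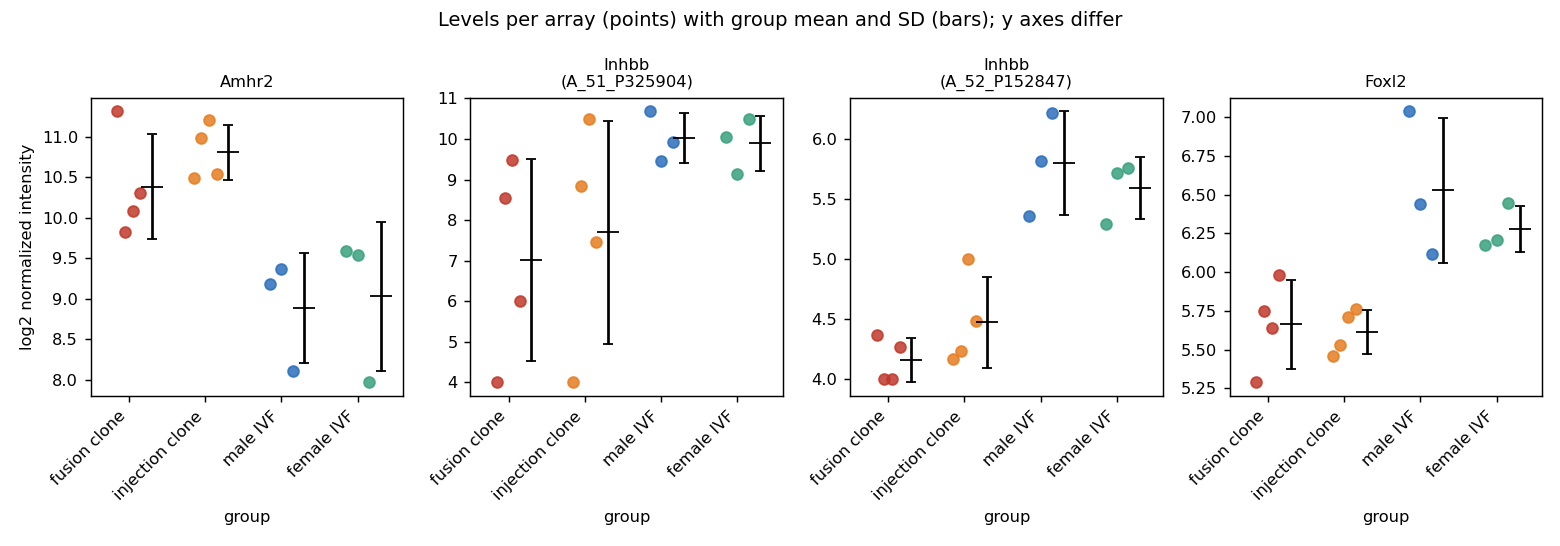
Log2 normalized intensity (vertical axes, on different scales) of Amhr2, the 2 Inhbb probes and Foxl2 in each group (horizontal axes); points are arrays, and bars give the group mean and SD (n = 4 for each clone group, n = 3 for each IVF group). The clone points lie above all IVF points for Amhr2 and below all IVF points for Foxl2 and the dimmer Inhbb probe, while the brighter Inhbb probe spreads from 4.0 to 10.49 in the clones.

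The ligand of Amhr2 and the genes of its signal chain were measured beside it, and moved in both directions. Amh, which encodes the hormone itself, was not well above background on any of the 8 clone arrays and was so on 4 of the 6 IVF arrays, at least 1.34-fold higher in the latter (limma, adjusted p = 0.0098). It was detected in 3 male and 1 female IVF embryo, with log2 means of 4.85 and 4.27, near the floor of 4. Against female embryos alone it was not called (limma, adjusted p = 0.39 for fusion and 0.38 for injection clones). Of the 22 probes of the hormone's signaling and bone morphogenetic protein genes, 3 were called higher and 6 lower in all clones against all IVF embryos. Over all probes tested in this comparison, 9.16% were called higher and 13.1% lower. The median log2 difference of the 22 probes was -0.33, against -0.07 over all probes. Higher were 1 of 3 probes of Bmpr2, a type II receptor of bone morphogenetic proteins, by 1.35 (the others differed by 1.43 and 0.16 and were not called), Smad7, an inhibitory SMAD, by 0.57, and 1 Smad5 probe detected on the 4 fusion clone arrays only. Against female embryos alone Smad7 differed by 0.24 in fusion and 0.17 in injection clones and was not called (limma, adjusted p = 0.54 and 0.65). Among the lower were the target genes Id3 (-2.84) and Id2 (-1.55), and another Smad5 probe (-1.31), so that the 2 called Smad5 probes disagreed in direction.

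Of the 3 protein-coding genes on each side of it, chosen by position after its level was known, only Prr13, the next gene after it, was called higher in the clones, by 0.85 ± 0.15 (SE; limma, adjusted p = 0.0031). Sp1, the next gene before it, differed by 0.36 ± 0.14 (adjusted p = 0.097), and Aaas, Sp7, Pcbp2 and Map3k12 had differences between -0.32 and -0.12 that were not called. A neighbor with several probes was read at its brightest. Of all probes tested in all clones against all IVF embryos, 9.16% were called higher and 13.1% lower. Over the 8 clone arrays, the 3 named genes whose log2 levels were most like those of Amhr2 among 17652 probes well above background on all 8 were Plbd1 (Pearson r = 0.98), Rgs14 (0.97) and Gtf2h5 (0.95). These arrays share scanner, slides and the 2 clone groups, and r is given as a description.

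The sequence before the start of Amhr2 is shown because it is the gene that was higher in the clones and because it holds a motif of a factor that was measured here. In RefSeq's GRCm38.p6 the 250 bases upstream of the start lie at chr15:102445117-102445366 on the plus strand, printed 5′ to 3′ with the motif AAGGTCA in capitals.
Amhr2: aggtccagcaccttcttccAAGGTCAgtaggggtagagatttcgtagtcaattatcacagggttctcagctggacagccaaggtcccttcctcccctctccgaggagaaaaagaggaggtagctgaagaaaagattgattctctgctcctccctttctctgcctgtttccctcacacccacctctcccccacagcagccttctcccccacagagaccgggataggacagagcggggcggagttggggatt

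AAGGTCA is the core of the sequence that the nuclear receptors Nr5a1 and Nr5a2 bind, and it begins 231 bases before the start. Both strands were searched, and of the 9 promoters that RefSeq gave for 8 of the 10 genes (2 for Cyp11a1) that of Amhr2 was the 1 with the motif. It was in 4.08% of all 32851 promoters of the same length. The same 250 bases held 5 CpG dinucleotides in Amhr2, against 21 in Inhbb, 22 in Foxl2 and 23 in Kitl, and 1 to 4 in the other 5 promoters, those of Cyp11a1, Inhba, Fshr and Hsd3b1. The median over all promoters was 6. Nr5a2 was bright in every embryo, with log2 levels of 13.84 to 15.24 in the clones and 13.59 to 14.48 in the IVF embryos, and was higher in all clones by 0.72 ± 0.20 (SE; limma, adjusted p = 0.027). Of the 2 probes of Nr5a1, the receptor of the ovary and adrenal gland, 1 was detected on 1 array only and the other was lower in the clones, with a difference of -0.91 ± 0.30 (adjusted p = 0.0496). Whether any factor bound this motif in the embryos, or bore on the level of Amhr2, was not tested.

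Fshr, on chromosome 17, is the receptor for follicle-stimulating hormone and a defining gene of granulosa cells. Its probe was dim throughout, with log2 levels of 4.63, 4.33, 4.99 and 4.55 in fusion clones and 6.51, 4.29, 4.53 and 4.0 in injection clones. The levels were 5.50, 4.0 and 4.58 in male and 4.62, 4.0 and 4.0 in female embryos. The groups overlapped, and 1 injection clone was the highest of all. The difference between all clones and all IVF embryos was 0.28 ± 0.38 (SE; limma, adjusted p = 0.62) and came to -0.00023 without injection clone 1. Lhcgr, the receptor for luteinizing hormone, stayed at background on all 14 arrays. Of the 26 tested probes of the gonadotropin and cyclic AMP list 1 was called higher and 3 lower, against 9.16% and 13.1% of all probes. The called probes were 1 of 6 of the transcription factor Crem (1.82), that of the protein kinase A subunit Prkar2b (-3.63) and 2 of the 6 tested of Gnas (-0.62 and -0.58), the stimulatory G protein subunit. The other 5 Crem probes differed by -0.57 to -0.13 and the other 4 of Gnas by -0.26 to 0.38, and none of them was called. Against female embryos alone the 2 called Gnas probes differed by -1.20 and -1.30 in fusion clones (limma, adjusted p = 0.027 and 0.016). In injection clones they differed by -0.31 and -0.36 and were not called (limma, adjusted p = 0.42 and 0.33).

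Inhbb and Inhba encode the beta subunits of activins and inhibins. The 2 probes of Inhbb, on chromosome 1, lie 2334 bases apart, and the brighter is nearer to the 3′ end of the gene. The brighter probe (A_51_P325904) had log2 levels of 4.0, 8.55, 9.49 and 6.01 in fusion clones and 4.0, 8.83, 10.49 and 7.46 in injection clones. In the IVF embryos it had 10.68, 9.46 and 9.92 in males and 10.04, 9.14 and 10.48 in females. It was thus bright on every IVF array, while the clones ran from 1 array at the floor in each clone group to 1 injection clone as bright as the IVF embryos.

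The mean of the brighter Inhbb probe was 7.35 ± 2.46 (SD, n = 8) in clones and 9.95 ± 0.58 (n = 6) in IVF embryos. The log2 difference of -2.60 ± 1.05 (SE) had an adjusted p of 0.10 (limma), and it was called under 1 of the 25 alternatives, the normexp background correction (-1.90, adjusted p = 0.0496). Against female embryos it was -2.88 ± 1.33 for fusion clones (adjusted p = 0.22) and -2.19 ± 1.50 for injection clones (adjusted p = 0.44). The processed intensity was 6.75 to 1448 on the clone arrays and 582 to 1467 on the IVF arrays, so that the ranges overlapped through the brightest clones.

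The dimmer Inhbb probe (A_52_P152847) had log2 levels of 4.36, 4.0, 4.0 and 4.27 in fusion clones, 4.17, 4.24, 5.00 and 4.48 in injection clones, 5.36, 5.82 and 6.22 in male and 5.29, 5.72 and 5.76 in female embryos. It was well above background on 4 of 8 clone and 6 of 6 IVF arrays. Every clone array was below every IVF array, as was the case for 4.03% of all probes tested. The log2 difference was -1.38 ± 0.18 (SE; limma, adjusted p = 0.00058) in all clones against all IVF embryos. It was -1.43 ± 0.20 (adjusted p = 0.013) in fusion clones against female embryos, where it was the 1 probe called lower of 13 tested of these genes, none was called higher, and 5.14% of all probes were called lower and 4.33% higher. In injection clones against female embryos it was -1.12 ± 0.25 (adjusted p = 0.067), where none of 11 tested probes was called. Of the 11, 5 had an unadjusted p below 0.05 (limma), as had 7596 of all 32788 probes tested. Of all probes, 1.51% were called higher and 2.1% lower.

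This probe was near background, so its size depended on how the background was treated. Its raw median was 53 to 76.5 on the clone arrays and 108 to 147 on the IVF arrays, but divided by the median of the negative control spots of the same array it was 1.88 to 2.39 in clones and 1.75 to 2.37 in IVF embryos, which overlapped. The difference shrank to -0.45 with normexp and to -0.55 on raw medians without background subtraction, and stayed called over all embryos in both. The part of the arrays' background in this difference was not tested.

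Inhba, on chromosome 13, was at the floor on 13 of the 14 arrays and bright in male IVF embryo 3. Its processed intensity there was 1432 and its raw median 1520, against 60 to 72 on the other IVF arrays and 30 to 42 on the clone arrays. No clone array was thus well above background for this gene. The other subunit and the binding protein were measured as partners. One Inha probe, for the alpha subunit that makes inhibin, differed by -2.48 ± 0.37 (SE; limma, adjusted p = 0.0012), being detected on 1 of the 8 clone and 5 of the 6 IVF arrays. Its log2 mean was 7.70 in male and 5.43 in female embryos. Against female embryos alone it was not called (limma, adjusted p = 0.20 for fusion and 0.31 for injection clones). The other Inha probe was detected on 4 clone arrays and 1 IVF array and differed by 0.45 ± 0.65 (adjusted p = 0.64). Fst, the activin-binding follistatin, differed by -0.08 ± 0.38 (adjusted p = 0.91). Of the 20 tested probes of the activin and inhibin list, 2 were higher (1 Acvr2a probe by 0.97, 1 Smad4 probe by 0.70) and 3 lower (Inha, Acvr2b by -0.90, Inhbe by -0.82). Over all probes, 9.16% were called higher and 13.1% lower. The second Smad4 probe differed by -0.17 and was not called.

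Foxl2, on chromosome 9, is the transcription factor that maintains granulosa cell identity. Its log2 level was 5.29, 5.75, 5.64 and 5.98 in fusion clones, 5.46, 5.53, 5.71 and 5.76 in injection clones, 7.04, 6.44 and 6.12 in male and 6.18, 6.21 and 6.45 in female embryos. All 8 clone arrays lay below all 6 IVF arrays. The log2 difference was -0.77 ± 0.16 (SE; limma, adjusted p = 0.0054), and it was called over all embryos under the 25 alternatives, at -0.87 to -0.40. Against female embryos the differences were -0.61 ± 0.21 for fusion clones (adjusted p = 0.12) and -0.66 ± 0.15 for injection clones (adjusted p = 0.064).

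Foxl2 too was close to background. It lay above the 99th percentile of the negative controls on 4 of 8 clone and 4 of 6 IVF arrays, and its processed intensity was 38.9 to 64.6 in clones and 55.4 to 104 in IVF embryos, which overlapped. Its raw median divided by that of the negative controls was 2.25 to 3.04 in clones, 2.14 to 2.84 in male and 1.92 to 2.13 in female embryos. On that scale the clones were above the female embryos, so that the direction of the difference turned with the way background was read. The part of the background in this difference was not tested.

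Star and Cyp11a1 carry out the first steps of steroid synthesis, the delivery of cholesterol into the mitochondrion and its conversion to pregnenolone, and Hsd3b1 encodes an enzyme that turns pregnenolone into progesterone. Star, on chromosome 8, had 2 probes 725 bases apart. The brighter had log2 levels of 4.0, 4.0, 5.53 and 6.02 in fusion clones and 8.26, 4.0, 6.41 and 4.18 in injection clones. The levels were 7.37, 4.0 and 8.45 in male and 4.0, 7.25 and 7.68 in female embryos. It was well above background on 5 of 8 clone and 4 of 6 IVF arrays, and every group held both bright arrays and arrays at the floor.

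The second Star probe was at 4.0, 5.63, 7.84 and 5.17 in fusion clones, 4.0, 4.0, 4.0 and 4.11 in injection clones, 4.0, 5.16 and 6.76 in male and 4.0, 5.67 and 5.57 in female embryos. The 2 probes were not always bright on the same embryos: injection clone 1, the brightest clone for the first, was at the floor for the second. In all clones against all IVF embryos the differences were -1.16 ± 0.94 and -0.35 ± 0.59 (SE; limma, adjusted p = 0.42 and 0.70). Neither was called.

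Cyp11a1, on chromosome 9, had 2 probes 231 bases apart. The brighter had log2 levels of 4.0, 5.09, 6.32 and 4.0 in fusion clones, 4.0, 5.28, 4.0 and 4.0 in injection clones, 4.0, 5.34 and 7.05 in male and 6.46, 4.82 and 7.20 in female embryos. It was well above background on 3 of 8 clone and 5 of 6 IVF arrays. The other ran from 4.0 to 4.62 in clones and from 4.0 to 6.71 in IVF embryos. The differences were -1.23 ± 0.57 and -1.04 ± 0.44 (SE; limma, adjusted p = 0.15 and 0.12), and the clones overlapped the IVF embryos for both.

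Hsd3b1, on chromosome 3, belongs to a family of near-identical genes, so that its probe may also bind transcripts of its relatives. Its log2 level was 6.85 in fusion clone 2, 5.28 in male embryo 3 and 7.28 in female embryo 2, and 4.0 to 4.08 on the other 11 arrays. It was marked well above background on 3 of 8 clone and 2 of 6 IVF arrays. The difference of -0.39 ± 0.61 (SE; limma, adjusted p = 0.67) was not called and had the other sign under some alternatives. Among the 26 tested probes of other steroid synthesis genes, 4 were higher and 2 lower in all clones, against 9.16% and 13.1% of all probes. The higher ones were 3 probes of Fdx1 (1.74, 1.43 and 0.96), the electron carrier of mitochondrial steroid enzymes, and that of Nr5a2. The lower ones were those of Nr0b1 (-4.53), a repressor of steroidogenic genes that pluripotent cells also express, and Nr5a1. Cyp19a1, the aromatase that makes estrogens, had 1 probe of 4.43 to 5.25 in fusion clones, 4.38 to 9.09 in injection clones, 4.0 to 4.67 in male and 4.30 to 5.07 in female embryos, and its difference of 1.27 ± 0.70 was not called (adjusted p = 0.23). Its second probe was detected on 1 array and differed by 0.11 ± 0.13 (adjusted p = 0.60).

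Has2, on chromosome 15, makes the hyaluronan of the expanding cumulus. The brighter of its 2 probes was at 4.0 to 4.18 on 13 arrays and at 8.22 in female IVF embryo 3, where the raw median was 347. The other was at 5.32 and 4.67 in fusion clones 3 and 4, at 4.23 in male embryo 1 and at the floor elsewhere. The 2 probes, 26164 bases apart on the genome, were above the floor on different arrays. Where the second was above the floor, its raw median was 65 to 96, near background. No difference was called (-0.68 ± 0.56 and 0.21 ± 0.19, SE; limma, adjusted p = 0.42 and 0.46). Of the 21 tested probes of other genes of the hyaluronan matrix and cumulus expansion, 3 were higher in all clones and none was lower. The shares over all probes were 9.16% higher and 13.1% lower. The 3 higher ones were 2 probes of Hyal1 (4.36 and 3.81), an enzyme that breaks hyaluronan down, and that of Ugdh (0.50), which makes a precursor of it.

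Kitl, on chromosome 10, encodes the ligand by which granulosa cells act on the oocyte through the receptor Kit. Its first probe, printed on 10 spots, had a log2 level of 10.86 in fusion clone 1 and of 4.0 to 4.11 on the other 13 arrays. The 10 spots agreed there, with processed intensities of 1690 to 1900, while the spot medians of the other arrays ran from -6.87 to 10.2. The second probe, 23101 bases away on the genome and farther from the 3′ end, stayed at background on all 14, fusion clone 1 included. The difference between all clones and all IVF embryos was 0.84 ± 0.95 (SE; limma, adjusted p = 0.56), as 1 embryo carried it.

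**Figure D4:**
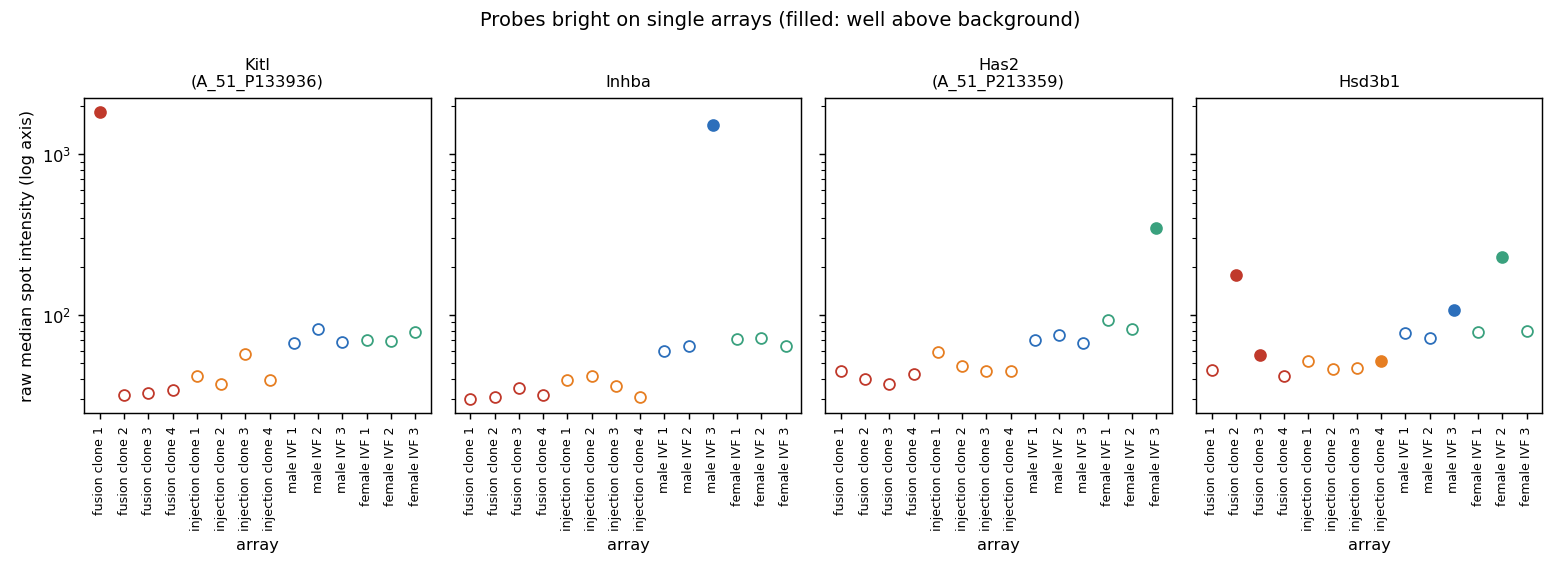
Raw median spot intensity (vertical axis, log scale) of 1 probe each of Kitl, Inhba, Has2 and Hsd3b1 on each of the 14 arrays (horizontal axis); filled points were well above background. The probes shown of Kitl, Inhba and Has2 (A_51_P133936, A_51_P239750 and A_51_P213359) were each well above background on 1 array, of fusion clone 1, male IVF embryo 3 and female IVF embryo 3, and that of Hsd3b1 on 3 clone and 2 IVF arrays.

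Kit itself was at 4.0 to 7.09 in fusion clones, 4.0 to 6.11 in injection clones, 4.0 to 8.85 in male and 6.91 to 8.20 in female embryos, and differed by -1.98 ± 0.74 (SE; limma, adjusted p = 0.078). Of the 18 probes of the Kit signaling list, 2 were higher (1 of 2 Cbl probes by 2.80, 1 of 2 Sos1 probes by 0.81) and 3 lower (Shc1 by -0.79, Grb2 by -0.65, Akt1 by -0.61) in all clones. The shares over all probes were 9.16% higher and 13.1% lower. The second probes of Cbl and Sos1 differed by -0.0094 and -0.30 and were not called. These signaling genes serve many receptors.

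Between fusion and injection clones, none of the 12 tested probes of these genes was called, and neither was any of the 32254 probes tested (0%, limma). At an unadjusted p below 0.05 there were 0 of the 12 and 1988 of all probes. Between male and female IVF embryos none of 13 was called, where 0.0594% of all probes were. At the methods' threshold 1 probe (Amhr2) was higher and 1 (the dimmer of Inhbb) lower of 13 in fusion clones against female embryos, where 8.49% and 8.62% of all probes were. In injection clones against female embryos 1 was higher (Amhr2) and 3 were lower of 11, where 6.95% and 7.12% of all probes were. The comparisons with female embryos share the same 3 control arrays.

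Other genes of cumulus and granulosa cells were not higher in the clones as a group. Of all probes tested in all clones against all IVF embryos, 9.16% were called higher and 13.1% lower. Of 29 tested probes of 19 further genes, 0 were called higher and 6 lower, with a median log2 difference of -0.20. The lower ones were those of Inha, Amh, Nr5a1 and 3 probes of Npr2 (-1.55, -1.52 and -1.29), the receptor through which cumulus cells hold the oocyte in meiotic arrest and which other tissues express too. The summed normalized intensity of the 36 probes of the 22 genes on the list was 4453 to 8596 in fusion clones, 3703 to 5994 in injection clones, 8830 to 16551 in male and 6345 to 12577 in female embryos. At an unadjusted p below 0.05 and at least 2-fold, 1 of the 29 was higher and 4 were lower, where 8.34% and 7.7% of all probes were.

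Markers of other cells were read in the same way, since the makeup of an embryo bears on any level in it, and in a whole embryo fewer cells of a type and less RNA per cell cannot be told apart. Over all probes tested, 9.16% were called higher and 13.1% lower in all clones. Primitive endoderm genes had 0 of 17 tested probes higher and 6 lower in all clones, with a median of -0.84. Among them Foxa2 was not well above background on any clone array and at least 103-fold higher in the IVF embryos, and 1 of 2 probes each of Sox7 (-4.36) and Lama1 (-3.81) was also lower, while the second ones differed by -0.84 and -0.42 and were not called. Of the trophectoderm genes 3 of 9 tested probes were lower (Elf5 by -3.17, Cdx2 by -0.60, Krt18 by -0.56) and none was higher. Of the epiblast genes Nanog was higher (1.02) and Klf2 lower (-0.81) among 6. Oocyte genes had 1 of 12 lower (Zp2 by -1.21), connective tissue genes had 0 of 11 called, and among 10 probes of blood cell genes that of Cd68, a protein of lysosomes, was higher (2.61). The part of such shifts in the levels of Amhr2, Inhbb or Foxl2 was not tested.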

How the data were processed

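The authors deposited, for each of the 14 arrays, spot intensities from Agilent Feature Extraction. Per the labels the version was 10.5.1, while the file headers give 10.5.1.1 for the clone arrays and 9.5.3.1 for the IVF arrays. These intensities are linear, background-subtracted and not normalized between arrays. No gene spot had a value below 0 on any clone array, while 6790 to 9981 had on each IVF array. Values near background are therefore not of the same kind on clone and IVF arrays. The part of this in the differences of dim probes was not tested. A deposited table of the authors' log2 values served as an alternative. Control spots were left out and outlier spots set to missing. Quantile normalization was applied to the processed intensities of all 14 arrays together, values under 16 were raised to 16 (log2 of 4), and log2 values of the spots of a probe were averaged. Probes marked well above background on 1 or more arrays of a comparison were tested together by limma 3.58.1 (R 4.3.3). The files hold no read depth, and the number of arrays limits the precision. The fits were tested on simulated data with known changes in 200 probes. In the data 7782 probes were called in all clones against all IVF embryos, 3070 in fusion and 1183 in injection clones against female embryos. The share recovered depends on how many probes change, so that the shares given here hold for the simulated setting only. In all clones against all IVF embryos they recovered 25.3% of 2-fold and 72.2% of 4-fold changes. Against female embryos they recovered 0.0% of 2-fold changes in either clone group. Of 4-fold changes they recovered 31.0% for fusion and 30.8% for injection clones, so that an uncalled difference may be real. Named were all probes of the 10 genes, a fixed set of partner genes, and from each of 13 further lists at most the 3 called probes that rose most and the 3 that fell most. The 10 genes and the lists were chosen with earlier results of these data known. Genes were matched to RefSeq by accession or symbol (32719 of 41174 probes). The deviations of male and female embryos with the same replicate number correlated at 0.14 to 0.17. In the other comparisons the correlations ran from -0.12 to 0.17, the highest being that of fusion and injection clone 3. Whether any embryos were pairs is not known. The reported fits have no replicate block, and the fit with it is an alternative. Alternatives were the floor, the background correction, the scaling, the filter, the variance model, the replicate block, the samples in the fit and leaving out each array. A fold given as "at least" is set against a group at background throughout, taken per array at the higher of the probe's own level and the lowest level marked well above background. Python 3.11.15 and matplotlib 3.10.9 were used.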

Additional observations from a re-analysis of the deposited data

Results flagged for a closer look

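In 7 of 22 sets of 4 clone arrays with any spread, the highest array stood apart from the other 3 by more than the 95% limit of Dixon's test, which chance passes in about 5% of sets. The log2 level was 10.86 for Kitl in fusion clone 1 and 6.85 for Hsd3b1 in fusion clone 2. It was 5.28 for the brighter and 4.41 for the dimmer Cyp11a1 probe, both in injection clone 2, and 4.62 for the dimmer one in fusion clone 3. It was 4.11 for the dimmer Star probe in injection clone 4 and 4.18 for Has2 in injection clone 1. In 6 of these sets the other 3 arrays were all at the floor of 4, where any array above it is set apart, and for Hsd3b1 they lay between 4.0 and 4.08.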

How the results depend on the processing

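Over the alternatives, 512 of 529 differences of single probes kept their direction and their side of the threshold. In fusion clones against female embryos the 1 called probe became 0 with normexp, with raw medians without background subtraction (chosen after the data had been seen), with probes averaged per gene and with the replicate block, under which limma called 0 probes in all (6931 at an unadjusted p below 0.05). In injection clones against female embryos the count of 0 became 1 with a floor of 32 and with the negative control filter (Foxl2), 2 with all 4 groups in 1 fit (Amhr2 and the dimmer Inhbb probe), and 0 to 1 with 1 array left out, the 1 being the dimmer Star probe without female embryo 1. In all clones against all IVF embryos the count was 3 to 4 with 1 array left out, the dimmer Cyp11a1 probe being added without male embryo 1. The sign of uncalled differences turned for Hsd3b1 with a floor of 1 (0.55) and the deposited log2 values (0.89).
With 1 array left out, Hsd3b1 ran from -0.75 to 0.15, the dimmer Star probe from -0.71 to 0.015, Fshr from -0.00023 to 0.48, and Amhr2 in male against female embryos from -0.67 to 0.25. The replicate block changed no other call of these genes, though it took the calls over all probes from 3070 to 0 for fusion and from 1183 to 0 for injection clones against female embryos, and from 19 to 0 between male and female embryos. Over all alternatives the calls over all probes ran from 0 to 4329, 0 to 3091 and 0 to 206 in these comparisons, from 0 to 11 between the clone groups (0 in the reported fit), and from 5167 to 8817 in all clones against all IVF embryos (7782). A mean of 7.29 of the 15 probes per array were well above background, and 10.2 lay above the 95th percentile of the negative controls. Of all gene probes, 57.5% to 65.1% per array were well above background, and 56.2% to 81.4% lay above that 95th percentile. The cause of the changes in the calls was not tested. Signal over background limits most of these genes, as 13 of the 15 probes were not well above it on every array. Amhr2 was, and there the slide, scanner and software version cannot be told apart from clone against IVF.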
